A study of Rattus norvegicus with 10 samples.

Results

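The 9 genes described here encode membrane transporters that carry drugs, bile salts, conjugates and lipids into or out of the liver cell. Slco1a1, Slco1a4, Slco1b2 and Slco2b1 serve uptake, Abcb1a, Abcb1b, Abcb4 and Abcg2 serve efflux into bile, and Abcc3 serves efflux back into blood. The genes were chosen by name, and their probes are those whose transcript accession on the array belongs to these 9 symbols in a RefSeq gene table. This gave 12 of the 41012 probes on the array, with 2 each for Slco1a4, Slco2b1 and Abcc3. Of these 12 probes, 9 probes of 7 genes were bright enough to be tested, among 22991 tested probes in all, and Abcb1a and Abcb1b were not.

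Liver RNA from 10 male Sprague Dawley rats was hybridized to single-colour Agilent whole rat genome arrays, 1 rat per array. The 3 control rats received the solvent propylene glycol alone, in a volume equal to that of the treated rats. The 4 SM rats received sulfur mustard (SM), an alkylating blister agent, in propylene glycol as 1 subcutaneous dose of 3.5 mg/kg, which is 0.7 of the LD50. The 3 SM + MSTF rats received that SM dose and, 1 h later, MSTF in water by stomach at 120 mg/kg. MSTF combines salvianolic acids of Salvia miltiorrhiza with flavonoids of Anemarrhena asphodeloides. All livers were taken 24 h after SM, and the labels give 10 rats per group with 3 or 4 livers arrayed. Whether the other groups were given water by stomach is not given in the sources used here, and there was no group given MSTF alone. The 4 SM arrays filled slide 2, so that an effect of SM and an effect of slide 2 cannot be told apart. Controls were hybridized on slide 1 together with SM + MSTF replicate 3, whereas replicates 1 and 2 of SM + MSTF were on slide 3.

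Hepatocytes take up organic anions from sinusoidal blood through organic anion transporting polypeptides, the products of the Slco genes, in their basolateral membrane. Pumps of the ATP-binding cassette (Abc) family then export drugs, conjugates and phospholipid, either across the canalicular membrane into bile or across the basolateral membrane into blood. Transcription of these genes is known to respond to the nuclear receptors CAR, PXR and FXR, to the liver factor HNF4A, and to inflammation.

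Levels are given as log2 signal, the log2 of the background-subtracted spot intensity after quantile normalization over the 10 arrays. A probe was called changed where limma gave an adjusted p under 0.05 (Benjamini-Hochberg, over all tested probes) and the change was at least 1.5-fold. No transporter probe passed in any of the 3 comparisons. In SM versus control limma called 0 of 9 transporter probes, against a background of 553 of 22991 tested probes (2.41%). For SM + MSTF versus control it called 0 of 9, and 0 of all tested probes (0%). Between SM + MSTF and SM it called 0 of 9, against 290 (1.26%). Leaving out 1 array gave 61 to 715, 0 to 248 and 96 to 291 calls over all tested probes, in the same order. With 9 probes, counts of 0 beside such low shares are no result about these genes.

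Weaker criteria gave the same count. At an unadjusted p under 0.05, limma found 0 of 9 transporter probes in each comparison, where it found 16.4% of all tested probes in SM versus control, 9.54% for SM + MSTF against control and 15.9% for SM + MSTF against SM. The methods' t-test at their unadjusted threshold and 1.5-fold also found 0 of 9 in each, beside 4.92%, 1.24% and 3.75% of all tested probes. Groups that did not overlap were found for 0 of 9 transporter probes in each comparison, against 18.0%, 15.4% and 14.7% of all tested probes in the same order. The comparisons share arrays, so their counts are not independent.

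Over the 7 tested genes, each by its brightest probe, the median log2 fold change in SM versus control was 0.00, beside 0.03 over all tested probes, and single genes ran from -0.11 (Slco1b2) to 0.27 (Slco1a4). For SM + MSTF against control it was 0.07 beside 0.01, and against SM it was 0.13 beside -0.02. In SM versus control 4 of the 7 genes had a positive log2 fold change, and this count was 5 with 75th percentile scaling and 3 with the authors' deposited values. No direction is therefore given for the family.

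**Figure D1:**
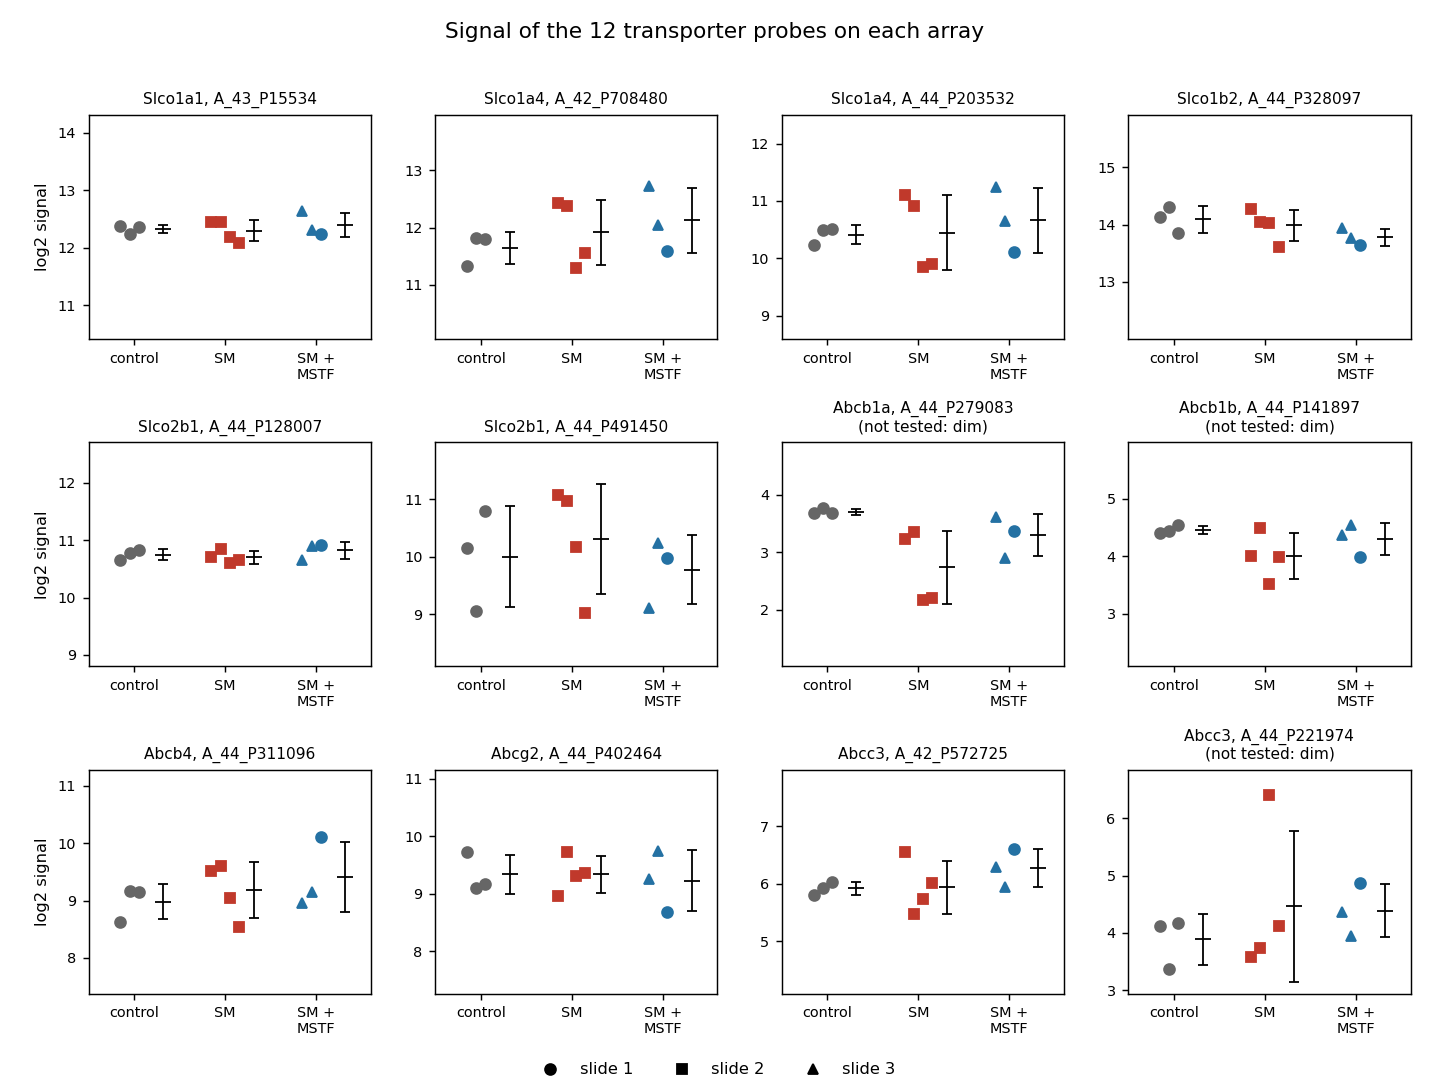
Log2 signal of each of the 12 transporter probes (vertical axes, all spanning the same range) on the control, SM and SM + MSTF arrays (horizontal axes). Each point is 1 array, its shape gives the slide, and the bar beside each group is the mean ± SD. The 3 groups overlap for each of the 9 tested probes, and Slco1a4 and Slco2b1 A_44_P491450 spread widely within the SM group.

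A wide spread between rats of the same group set the limit for most of these genes. The SD within groups was 0.36 for Abcc3, 0.40 for Abcg2 and 0.49 for Abcb4 on the log2 scale, beside a median of 0.20 over all tested probes. The Slco1a4 probes reached 0.51 and 0.53, and the dimmer Slco2b1 probe reached 0.84. Slco1b2 at 0.23, Slco1a1 at 0.17 and the brighter Slco2b1 probe at 0.12 were the steadier ones. The 95% interval of the log2 fold change lay within 1.5-fold in either direction for 4 of 9 probes in SM versus control (60.1% of all tested probes), 2 of 9 for SM + MSTF against control (59.6%) and 3 of 9 for SM + MSTF against SM (58.5%). For the remaining probes, changes of 1.5-fold or more lie inside the interval.

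Slco1a1 encodes Oatp1a1, a sinusoidal uptake carrier for bile salts, steroid conjugates and drugs. Its log2 signal was 12.37, 12.24 and 12.35 on the control arrays. It was 12.45, 12.44, 12.19 and 12.09 on the SM arrays and 12.64, 12.31 and 12.23 on the SM + MSTF arrays. SM replicates 1 and 2 lay above all controls, SM replicates 3 and 4 lay below all of them, and the groups overlapped. Against control, SM had a log2 fold change of -0.03 with a 95% interval of -0.33 to 0.27 (limma, adjusted p = 0.936, n = 4 and 3), and its sign turned with 75th percentile scaling. SM + MSTF gave 0.07 against control (-0.24 to 0.39) and 0.10 against SM (-0.19 to 0.40), and without SM + MSTF replicate 1 these turned to -0.05 and -0.02. These intervals keep Slco1a1 within 1.5-fold either way in all 3 comparisons.

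Slco1a4 encodes Oatp1a4, an uptake carrier with many drug substrates, digoxin among them. Its brighter probe, A_42_P708480, gave 11.33, 11.82 and 11.80 on the control arrays. On the SM arrays it gave 12.42, 12.38, 11.30 and 11.55, and on the SM + MSTF arrays 12.72, 12.05 and 11.60. The SM rats fell on both sides of the controls, with SM replicates 1 and 2 above all of them and SM replicate 3 below. The second probe, A_44_P203532, gave 10.23, 10.50 and 10.52 in controls, 11.10, 10.92, 9.85 and 9.91 in SM, and 11.24, 10.65 and 10.11 in SM + MSTF. On this probe SM replicates 1 and 2 again lay above all controls, and both SM replicates 3 and 4 lay below them.

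The log2 fold change of the brighter Slco1a4 probe in SM versus control was 0.27 with a 95% interval of -0.49 to 1.02 (limma, adjusted p = 0.752), and that of the second probe was 0.03 (-0.76 to 0.82). For SM + MSTF versus control the brighter probe gave 0.48 (-0.33 to 1.28, limma, adjusted p = 0.701), the largest value among the brightest probes of the 7 genes in that comparison. That value differed between the arrays of the group. The mean of SM + MSTF replicates 1 and 2, both on slide 3, lay 0.74 above the control mean. SM + MSTF replicate 3, on the slide of the controls, lay below it at -0.05. Slide and rat cannot be told apart here. Without SM + MSTF replicate 1 the log2 fold change was 0.18. Against SM, the SM + MSTF group gave 0.21 (-0.55 to 0.97), and -0.09 without SM + MSTF replicate 1.

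**Figure D2:**
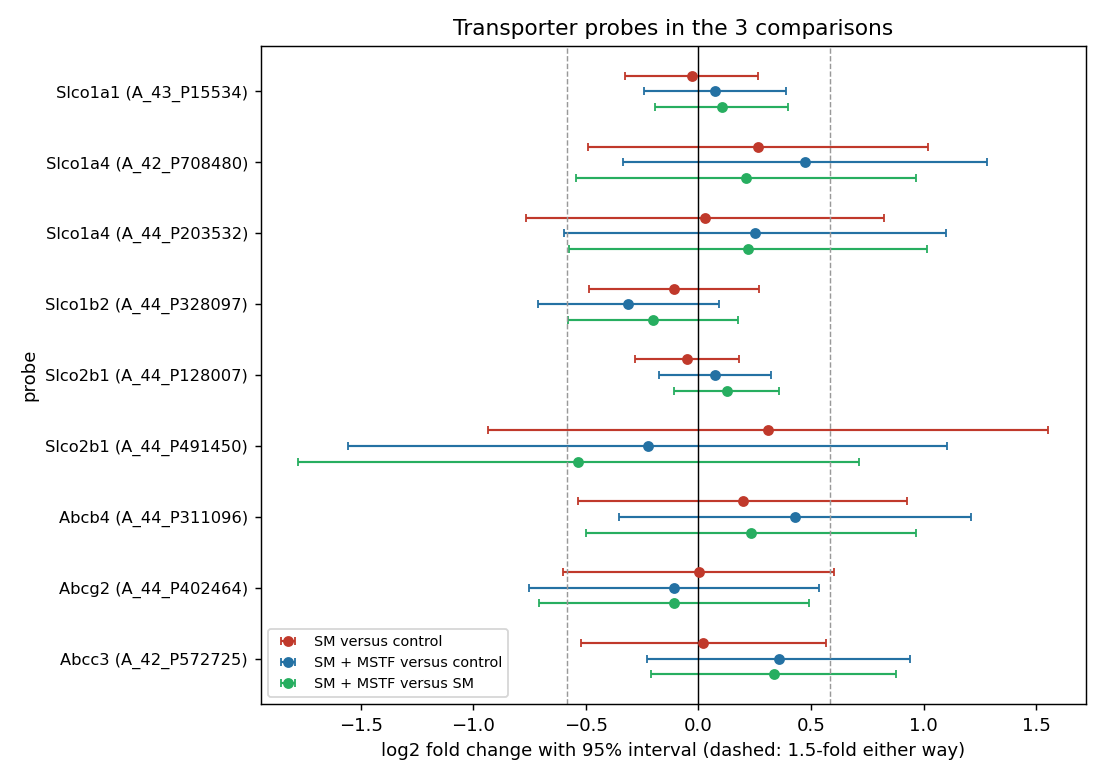
Log2 fold change (horizontal axis) of the 9 tested transporter probes (vertical axis), with a colour for each of the 3 comparisons. Points are limma estimates, bars are 95% intervals, and dashed lines mark 1.5-fold in either direction. Every interval includes 0, and those of Slco2b1 A_44_P491450 are the widest.

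Slco1b2 encodes Oatp1b2, the rodent counterpart of the human hepatic OATP1B carriers, which clear unconjugated and conjugated bilirubin, statins and some toxins from blood. Its log2 signal was 14.13, 14.31 and 13.85 in controls. It was 14.27, 14.04, 14.02 and 13.61 in SM and 13.94, 13.76 and 13.64 in SM + MSTF. Among the SM + MSTF arrays 2 lay below all controls, and replicate 1 lay within their range. Its log2 fold change in SM + MSTF versus control was -0.31 (95% interval -0.71 to 0.09), with the smallest unadjusted p of any transporter probe, 0.114 by limma, and an adjusted p of 0.610. It was negative in each alternative run for that comparison. SM gave -0.11 against control (-0.49 to 0.27, limma, adjusted p = 0.799), from -0.23 to 0.02 with an array left out, and SM + MSTF gave -0.20 against SM (-0.58 to 0.17).

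Slco2b1 encodes Oatp2b1, an uptake carrier for steroid sulfates and statins that other tissues express too. The brighter probe, A_44_P128007, gave 10.65, 10.77 and 10.83 in controls, 4 values from 10.59 to 10.84 in SM, and 10.66, 10.90 and 10.91 in SM + MSTF. All 10 values lay within 0.32 of each other, the narrowest range of the tested transporter probes. By this probe SM differed from control by a log2 fold change of -0.05 (-0.28 to 0.18), and SM + MSTF by 0.07 from control (-0.17 to 0.32) and by 0.13 from SM (-0.11 to 0.36). The second probe, A_44_P491450, varied far more between rats. It gave 10.15, 9.06 and 10.80 in controls, 11.07, 10.98, 10.18 and 9.02 in SM, and 9.10, 10.25 and 9.98 in SM + MSTF. The low values 9.06, 9.02 and 9.10 thus occurred in 1 rat of each group.

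All 3 log2 fold changes of the second Slco2b1 probe had the opposite sign to those of the brighter probe: 0.31, -0.23 and -0.53 in the same order. Its interval in SM versus control ran from -0.94 to 1.55, and without control replicate 2 the value became -0.16. Over the 10 arrays the 2 Slco2b1 probes correlated at r = 0.306 (permutation p = 0.377). The level of Slco2b1 is therefore described from the brighter probe, and why the probes differ was not tested.

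The canalicular pumps Abcb1a and Abcb1b, both forms of P-glycoprotein, export cationic and bulky drugs into bile. Abcb1a was not well above background on any of the 10 arrays. Its values were 3.68, 3.77 and 3.68 in controls, 3.24, 3.35, 2.17 and 2.21 in SM, and 3.62, 2.91 and 3.38 in SM + MSTF. With no group well above background no fold change is given, and the order of such values is not read. Abcb1b was well above background on 1 control array, 1 SM array and 0 SM + MSTF arrays. Its values were 4.40, 4.45 and 4.54 in controls, 4.00, 4.49, 3.52 and 3.99 in SM, and 4.37, 4.54 and 3.99 in SM + MSTF.

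No fold change is given for Abcb1b either, since most of its values in each group were not well above background. Without the filter on dim probes limma called 0 of all 12 transporter probes in each comparison, beside 0.834%, 0% and 0.656% of all 41012 probes, shares at which 0 of 12 is no result.

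Abcb4 encodes Mdr2, the canalicular floppase that supplies phosphatidylcholine to bile. Its log2 signal was 8.62, 9.17 and 9.15 in controls. It was 9.52, 9.60, 9.04 and 8.55 in SM and 8.96, 9.16 and 10.11 in SM + MSTF. SM replicates 1 and 2 lay above all controls, SM replicate 4 lay below them, and SM + MSTF replicate 3 was the highest of the 10 arrays. SM gave a log2 fold change of 0.20 over control (-0.54 to 0.93, limma, adjusted p = 0.819), and 0.02 to 0.41 with an array left out. For SM + MSTF versus control it was 0.43 (-0.35 to 1.21, limma, adjusted p = 0.721), and this value rested on SM + MSTF replicate 3. That array lay 1.13 above the control mean on the same slide, and without it the log2 fold change was 0.08. Against SM, SM + MSTF gave 0.23 (-0.50 to 0.97), and -0.12 without that array.

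Abcg2 encodes the breast cancer resistance protein, a canalicular pump for sulfate conjugates, urate and drugs. It gave 9.73, 9.10 and 9.17 in controls, 8.95, 9.72, 9.31 and 9.36 in SM, and 9.26, 9.74 and 8.68 in SM + MSTF. The control and SM means were both 9.33. The log2 fold change in SM versus control was 0.00, with an interval of -0.60 to 0.60 that reaches just past 1.5-fold on each side (limma, adjusted p = 0.999). SM + MSTF gave -0.11 against control (-0.75 to 0.54), and without SM + MSTF replicate 3, the lowest of the 10 arrays, it was 0.17.

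Abcc3 encodes Mrp3, a basolateral pump that returns glucuronides and bile salts to blood. Its brighter probe, A_42_P572725, gave 5.80, 5.92 and 6.03 in controls. It gave 6.55, 5.47, 5.73 and 6.02 in SM and 6.29, 5.93 and 6.60 in SM + MSTF. SM replicate 1 and SM + MSTF replicates 1 and 3 lay above all controls, and SM replicates 2 and 3 below. SM gave a log2 fold change of 0.02 over control (-0.52 to 0.57, limma, adjusted p = 0.976). SM + MSTF gave 0.36 over control (-0.23 to 0.94) and 0.33 over SM (-0.21 to 0.88), and normexp background correction lowered these to 0.13 and 0.07. Without SM + MSTF replicate 3 they were 0.19 and 0.17.

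The second Abcc3 probe, A_44_P221974, was well above background on 0 control arrays, 1 SM array and 1 SM + MSTF array. It gave 4.11, 3.38 and 4.17 in controls, 3.59, 3.74, 6.41 and 4.12 in SM, and 4.36, 3.94 and 4.87 in SM + MSTF. SM replicate 3 stood apart on this probe but not on the brighter one. No fold change is given for it.

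The Slco1a genes varied between rats of a group in a shared way. Slco1a4, Slco1a1, Slco1a5 and Slco1a6, which encode related Oatp1a carriers, are neighbours on rat chromosome 4, where the RefSeq order of this family is Slco1c1, Slco1b2, Slco1a4, Slco1a1, Slco1a3, Slco1a6, Slco1a5. The Slco1a6 probe gave 6.06, 6.47 and 6.63 in controls, 6.76, 6.74, 5.80 and 6.16 in SM, and 7.27, 6.69 and 6.34 in SM + MSTF. Slco1a5 gave 8.09, 8.06 and 8.24 in controls, 8.30, 8.26, 7.55 and 7.74 in SM, and 8.63, 8.24 and 8.08 in SM + MSTF. As with both Slco1a4 probes, SM replicates 1 and 2 and SM + MSTF replicate 1 lay above all controls, and SM replicate 3 lay below them. SM replicate 4 lay below the controls on Slco1a5 and the second Slco1a4 probe. On Slco1a6 and the brighter Slco1a4 probe it lay within their range, above control replicate 1.

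Correlations over the 10 arrays were tested for the 36 pairs among the 9 transporter probes, with 100000 permutations and Benjamini-Hochberg adjustment over the 36, a family chosen after seeing the data. Pearson's r passed at an adjusted p under 0.05 in 2 pairs, and Spearman's rho passed in the same 2. Among these, the 2 Slco1a4 probes are a pair within a gene, where likeness says nothing about different transporters. The pair of different genes was Slco1a1 with the second Slco1a4 probe. A low p of the pair within a gene also lowers the adjusted p of the others. Slco1a5 and Slco1a6 were added after their values had been seen, and Slco1a6 had the highest r with Slco1a4 of all named genes, so their correlations are a description without a test. The number of arrays per slide, at most 4, is too few for a correlation within a slide.

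The 2 Slco1a4 probes gave r = 0.953 (permutation p = 5e-05, adjusted p = 0.0018) and rho = 0.952 (permutation p = 0.00013, adjusted p = 0.00468). Without the 2 arrays farthest from the Slco1a4 median, SM + MSTF replicate 1 and SM replicate 1, r was 0.904. As a description, the brighter Slco1a4 probe and Slco1a6 gave r = 0.946 and rho = 0.988, and r = 0.912 without the farthest 2 arrays. With Slco1a5 it gave r = 0.833 and rho = 0.855, and r = 0.701 without the farthest 2. With the group means taken out, r was 0.986 with Slco1a6 and 0.947 with Slco1a5.

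Slco1a1 followed the same rats over a narrower range. With the second Slco1a4 probe it gave r = 0.893 (permutation p = 0.00044, adjusted p = 0.00792) and rho = 0.903 (permutation p = 0.00086, adjusted p = 0.0155), and r = 0.833 without SM + MSTF replicate 1 and SM replicate 4, the arrays farthest from the Slco1a1 median. With the brighter Slco1a4 probe it did not pass, at r = 0.80 (permutation p = 0.00435, adjusted p = 0.0519) and rho = 0.758 (permutation p = 0.0152, adjusted p = 0.137). There r was 0.708 without the same 2 arrays, and normexp background correction lowered it to 0.55.

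Slco1b2, next to Slco1a4 on the chromosome, gave r = 0.213 with the brighter Slco1a4 probe (permutation p = 0.549, adjusted p = 0.91) and rho = 0.224 (permutation p = 0.535, adjusted p = 0.803), and r = 0.0435 without SM + MSTF replicate 1 and SM replicate 1. With the second Slco1a4 probe Slco1b2 gave r = 0.399 (permutation p = 0.248, adjusted p = 0.91) and rho = 0.309 (permutation p = 0.385, adjusted p = 0.768), and r = 0.614 without SM + MSTF replicate 1 and SM replicate 3. With the group means taken out, Slco1b2 reached r = 0.542 and 0.633 with these probes, beside 0.833 and 0.892 for Slco1a1. The difference between these correlations was not tested, and Slco1b2 is not set apart by them. Probe sequences were not used here, so whether a probe also binds the transcript of a related Slco1a gene was not tested.

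**Figure D3:**
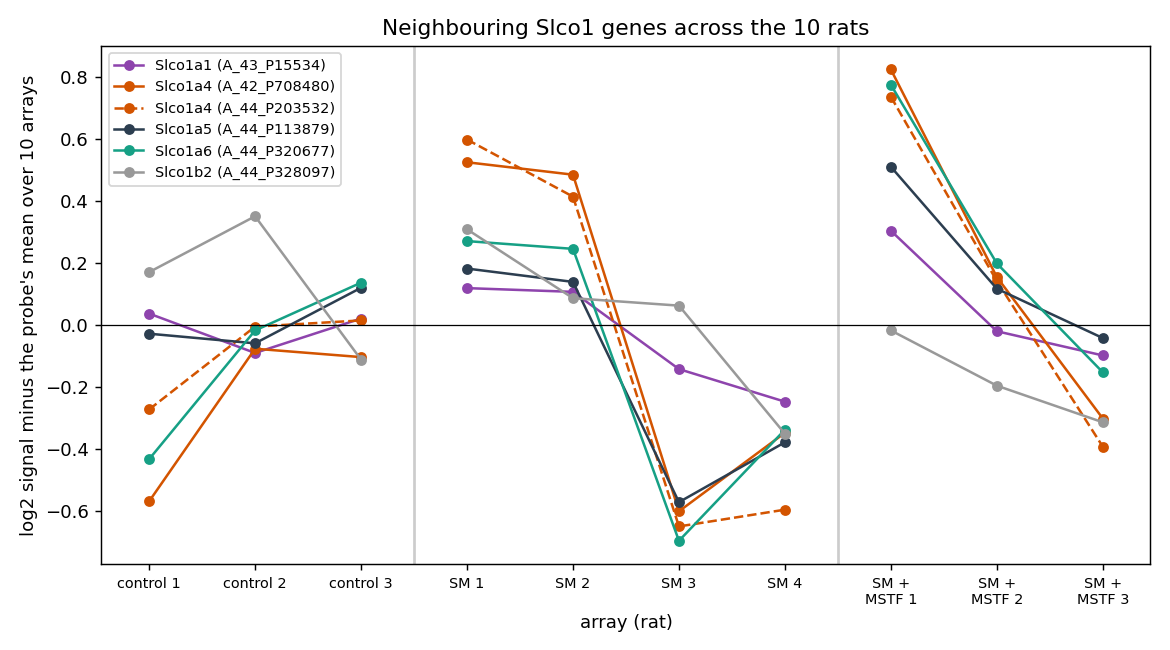
Log2 signal minus the probe's own mean over the 10 arrays (vertical axis) for Slco1a1, both Slco1a4 probes, Slco1a5, Slco1a6 and Slco1b2 on each array (horizontal axis, 1 rat per array). Lines only join the points of a probe within a group. The Slco1a probes lie above their own mean in SM replicates 1 and 2 and SM + MSTF replicate 1 and below it in SM replicates 3 and 4. Slco1b2 gave r = 0.213 and 0.399 with the Slco1a4 probes.

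Among the efflux genes the largest r was negative but did not pass. Abcc3 and Abcg2 gave r = -0.799 (permutation p = 0.00577, adjusted p = 0.0519) and rho = -0.673 (permutation p = 0.0387, adjusted p = 0.279). Without SM + MSTF replicate 3 and SM replicate 1, the arrays farthest from the Abcc3 median, r was -0.534. Over 55 pairs, with the Slco1a5 and Slco1a6 probes included, the adjusted p of r for Abcc3 and Abcg2 was 0.0296. For Slco1a1 with the brighter Slco1a4 probe it was 0.0266. The added probes were chosen after their values had been seen, and their own low p values lower the adjusted p of other pairs. The values over 55 pairs therefore cannot decide whether a pair passes, and neither pair is taken to pass.

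Promoters are shown for the neighbours Slco1a4 and Slco1a1, whose correlation across rats passed for the second Slco1a4 probe but not for the brighter one. Each sequence is 300 bases of RefSeq on GRCr8, 250 before the start of the gene and 50 from it, written 5′ to 3′ on the strand of the gene. RefSeq promoters were found for 8 of the 9 genes, all but Abcc3. The Slco1a4 promoter lies at chr4:176495797-176496096 and that of Slco1a1 at chr4:176681943-176682242, both on the minus strand. Capitals mark CCAAT, here on the opposite strand and read as ATTGG.
Slco1a4: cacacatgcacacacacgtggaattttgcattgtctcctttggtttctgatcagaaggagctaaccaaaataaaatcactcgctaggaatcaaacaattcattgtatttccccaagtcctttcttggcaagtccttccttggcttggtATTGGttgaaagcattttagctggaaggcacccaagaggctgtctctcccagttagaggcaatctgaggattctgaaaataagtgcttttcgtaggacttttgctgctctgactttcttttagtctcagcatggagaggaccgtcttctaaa
Slco1a1: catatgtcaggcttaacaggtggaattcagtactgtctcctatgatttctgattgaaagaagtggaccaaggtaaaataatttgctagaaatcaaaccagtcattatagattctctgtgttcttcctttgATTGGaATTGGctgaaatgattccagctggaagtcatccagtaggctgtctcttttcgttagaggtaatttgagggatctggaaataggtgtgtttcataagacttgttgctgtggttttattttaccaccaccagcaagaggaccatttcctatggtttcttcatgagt

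Aligned end to end, the Slco1a4 and Slco1a1 promoters were identical at 211 of 317 positions (66.6%), whereas Slco1b2 reached 49.7% with Slco1a4 and 50.8% with Slco1a1. Slco1a6, the gene with the highest r with Slco1a4, had 46.1% identity with the Slco1a4 promoter and Slco1a5 had 45.5%. Identity between unrelated promoters was not computed, so how far these values exceed it, if at all, is not known. Motifs were searched on both strands. CCAAT occurred in 3 of the 8 transporter promoters (Slco1a1, Slco1a4 and Abcb1b) and in 37.5% of all 33465 promoters.

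AGGTCA, the core letters that many nuclear receptors bind, was found in the Slco1b2 promoter and in 16.2% of all, and TATAAA in Slco1b2 and in 14.2% of all. GGGCGG, the GC box, was found in 4 of the 8, namely Abcb1a, Abcb1b, Abcb4 and Abcg2, beside 33.1% of all. GCGTG, the core letters of the dioxin response element, was found in Slco1b2, Abcb4 and Abcg2, beside 29.7% of all. TGACNNNGC, the core of the antioxidant response element, was found in 0 of the 8, beside 12.1% of all. A match describes letters in these windows, and nothing is read from it about binding.

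Genes of most like pattern were taken for the uptake gene and the efflux gene with the largest change in SM versus control, a choice that rests on values which move when an array is left out (0.10 to 0.47 for Slco1a4), as the 5 named genes of highest Pearson r over the 10 arrays among the tested probes. For Slco1a4 these were Slco1a6 (0.946), Sorbs2 (0.944), Map2k4 (0.939), Ptdss2 (0.931) and Msra (0.914). For Abcb4 they were Acot4 (0.941), As3mt (0.933), Lrtm2 (0.932), Pex11a (0.929) and Pink1 (0.924). Acot4 and Pex11a are peroxisomal genes that PPARA is known to induce. These values describe likeness over the same 10 arrays and say nothing of shared function or control.

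Of 22 other uptake genes listed, 16 were tested and limma called 0 in each comparison. There were 4, 0 and 4 at an unadjusted p under 0.05 and 5, 0 and 3 whose groups did not overlap. Over all tested probes, 16.4%, 9.54% and 15.9% had such a p, and 18.0%, 15.4% and 14.7% had groups without overlap. These shares, and the called shares of 2.41%, 0% and 1.26%, are the background for the lists below too. In SM versus control 8 of the 16 were positive and 8 negative. Slc10a1, the sodium-dependent bile salt carrier Ntcp, gave 15.06, 15.25 and 15.23 in controls, 4 values from 14.61 to 15.04 in SM, and 15.18, 14.99 and 15.32 in SM + MSTF. All SM values lay below all control values, and the log2 fold change of -0.35 had a 95% interval of -0.66 to -0.05 (limma, adjusted p = 0.235).

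Of 16 other efflux genes, 11 were tested and limma called 0 in each comparison, with 2, 0 and 2 at an unadjusted p under 0.05. Abcb11, the bile salt export pump, gave -0.06 in SM versus control (-0.46 to 0.35). Abcc2, the canalicular pump for conjugates, gave 14.74, 14.36 and 14.45 in controls, 13.94, 14.28, 14.21 and 13.99 in SM, and 14.28, 14.52 and 13.03 in SM + MSTF. All 4 SM values lay below the controls, and its log2 fold change was -0.41 (-1.10 to 0.27, limma, adjusted p = 0.559). Abcc4, a basolateral pump, was at 7.69 in SM replicate 2 and 8.06 in SM + MSTF replicate 1 but between 5.42 and 6.07 on the remaining arrays by its brighter probe. Its second probe gave 5.39 and 5.34 on those 2 arrays and 4.59 to 5.39 over all 10, without such a rise. Slc47a1, a proton-coupled cation exporter, was well above background on 0 of 10 arrays.

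Regulators of these genes were tested for 21 of 25 listed, with 0 called by limma in each comparison and 2, 3 and 2 at an unadjusted p under 0.05. In SM versus control the log2 fold change was -0.04 for Nr1i2 (PXR), 0.04 for Nr1h4 (FXR), -0.19 for Nfe2l2, 0.17 for Hnf4a and 0.10 for Pdzk1, a scaffold protein of Oatp1a1. The Hnf4a value was 0.01 without SM replicate 1, a fit chosen after seeing the data. Nr1i3 (CAR) varied between rats, at 8.13, 7.83 and 8.53 in controls, 8.89, 8.70, 7.97 and 8.4 in SM, and 7.39, 8.60 and 10.04 in SM + MSTF. Its highest and lowest values both came from the SM + MSTF group. Nr0b2 (SHP), named after its values were seen, had the largest value of the list in SM versus control, at 1.60 (0.12 to 3.07, limma, adjusted p = 0.266). Nr1h4 gave 0.42 in SM + MSTF versus control (0.04 to 0.80, limma, adjusted p = 0.484). No probe was matched to Ahr.

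Enzymes that share regulators with the transporters were listed in 2 sets, with 0 called in any comparison by limma. Of the CAR and PXR targets 18 of 19 were tested, with 1, 2 and 1 at an unadjusted p under 0.05 and a median of 0.16 in SM versus control. Cyp2b2 gave -0.49 by its brightest probe (limma, adjusted p = 0.391) but -0.11, -0.08 and -0.04 by its other probes. Cyp2b1 gave -0.23 (limma, adjusted p = 0.310), and Cyp3a2 gave 0.16, or -0.02 without control replicate 2. Of the AhR and Nrf2 targets 13 of 18 were tested, with 2, 0 and 1 at an unadjusted p under 0.05. In SM versus control 12 of the 13 had a positive value (11 with normexp background correction), beside 55.9% of all tested probes. Their median was 0.15 beside 0.03 over all probes. The count of positive values was not rerun with each array left out. Nqo1, a quinone reductase, gave 5.96, 7.43 and 8.07 in controls and 7.78, 8.66, 7.74 and 8.55 in SM, a log2 fold change of 1.03 (0.04 to 2.01, limma, adjusted p = 0.281), or 0.43 without control replicate 1. Gclc gave 0.29, and 0.13 to 0.51 with an array left out, and Cyp1a1 was too dim to test. Gclm, named after its values were seen, was not tested either and is not among the 13. It was well above background on 2 of 3 control arrays and 0 of 4 SM arrays. Its values were 5.23, 4.72 and 5.09 in controls and 2.47, 1.94, 2.07 and 2.04 in SM. The SM values thus lay below the controls, opposite in direction to the 12 positive genes. No size of change is given, since the SM values were not well above background. Hmox1 gave 0.39, a value that rested on SM replicate 4 and was -0.05 without it. Leaving out each array for these enzymes was chosen after seeing the data. No probe was matched to Cyp3a23-3a1.

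Inflammation and acute phase genes were tested for 13 of 16 listed, with 0 called and 0, 1 and 2 at an unadjusted p under 0.05. Against control, the SM + MSTF values had a median of 0.26 beside 0.01 over all probes. Of these values 13 of 13 were positive, beside 50.9% of all tested probes, and 75th percentile scaling left 12. Without SM + MSTF replicate 3 there were 10 of 13, with a median of 0.10, a count taken after seeing the data. Male-specific and growth hormone dependent liver genes, a list that bears on the sex-dependent Slco1a1, were tested for 15 of 17. Among these Cyp4a2, a fatty acid hydroxylase, was called higher in SM + MSTF versus SM, with 0 others called in any comparison and 0, 3 and 2 at an unadjusted p under 0.05. It gave 10.77, 10.87 and 11.54 in controls, 11.53, 11.54, 10.87 and 11.06 in SM, and 12.74, 12.13 and 13.21 in SM + MSTF, a log2 fold change over SM of 1.44 (limma, adjusted p = 0.0465, higher in 3 of 3 arrays). It was called in 6 of 21 alternatives, with adjusted p from 0.0406 to 0.239.

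**Figure D4:**
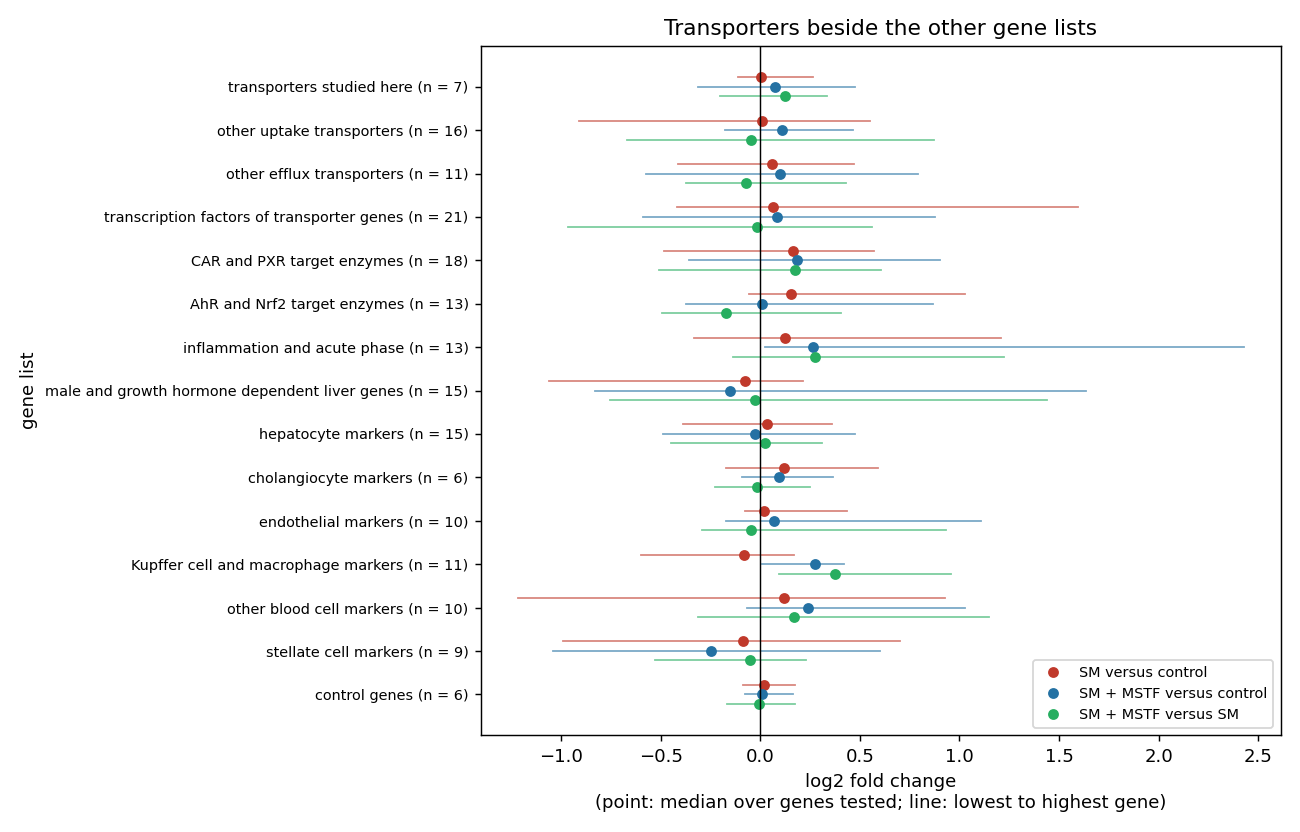
Log2 fold change (horizontal axis) over the tested genes of each list (vertical axis, n genes tested) in the 3 comparisons. Points are medians and lines run from the lowest to the highest gene. The median of the transporters studied here is 0.00 in SM versus control.

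All 15 hepatocyte markers were measured, and their mean log2 signal was high on every array, between 16.2 and 16.4, as the liver label requires. Quantile normalization evens out the brightest probes, so this even level cannot show that the share of hepatocytes was even. Limma called 0 of the 15 in each comparison. At an unadjusted p under 0.05 there were 0, 4 and 1, and the groups of 2, 5 and 1 did not overlap. Alb gave -0.10 in SM versus control, Actb 0.04 and Gapdh 0.17, and the 6 control genes had a median of 0.02. In bulk liver, fewer cells of a type and less RNA per cell cannot be told apart. Of 11 Kupffer cell and macrophage markers tested, 10 were negative in SM versus control (9 with 75th percentile scaling and 6 without SM replicate 2), and 11 of 11 were positive for SM + MSTF against either other group, or 10 where some of the arrays were left out, as was tried after seeing the data. Limma called 0 of them in each comparison, with 0, 0 and 4 at an unadjusted p under 0.05.

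The summed linear signal of the Kupffer cell list, to which the Clec4f probe gave the largest part, was 117200, 114200 and 145600 in controls, 96300, 77530, 122700 and 142300 in SM, and 122800, 140600 and 152200 in SM + MSTF. SM replicates 1 and 2 had the lowest sums, but by the mean log2 signal of the list SM replicate 3, at 11.27, lay below SM replicate 1, at 11.31. The part of these cells in the Slco1a values was not tested. Limma called 0 of 6 tested cholangiocyte, 0 of 10 endothelial and 0 of 9 stellate cell markers in each comparison, with median log2 fold changes of 0.12, 0.02 and -0.09 in SM versus control. At an unadjusted p under 0.05 there were 0, 0 and 0 cholangiocyte, 2, 1 and 1 endothelial and 3, 4 and 1 stellate cell markers. The stellate cell markers ran from -0.99 (Col1a1) to 0.70 (Rgs5) in SM versus control, both named after their values were seen, and a second Col1a1 probe gave -0.42. Among 10 other blood cell markers Klrd1, a natural killer cell receptor, was the only call, with 2, 0 and 1 at an unadjusted p under 0.05. It was well above background on 2 of 4 SM arrays, so the size of its change is uncertain. Its log2 fold change in SM versus control was -1.22 (limma, adjusted p = 0.0277, lower in 4 of 4 arrays), and -1.32 to -0.36 over 20 alternatives, of which 10 called it, with adjusted p from 0.0130 to 0.110. Between SM and SM + MSTF it was 1.15 (limma, adjusted p = 0.0455, higher in 3 of 3 arrays), and 0.29 to 1.30 over 20 alternatives, of which 4 called it, with adjusted p from 0.0412 to 0.269.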

How the data were processed

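Liver RNA of 10 rats was measured on single-colour arrays. The authors read each spot with Agilent Feature Extraction 10.7 and deposited its background-subtracted intensity, and they deposited log2 values after quantile normalization, used here as an alternative. Here spots marked not uniform and control spots were left out, intensities were quantile normalized, put on the log2 scale and averaged per probe (43379 spots, 41012 probes). A probe was tested when all arrays of 1 group or more marked it well above background (22991). Accessions named 17512 probes through RefSeq genes of GRCr8. The arrays follow an older build, so no coordinates are given for probes. Groups came from the labels. All 10 arrays entered 1 limma fit (limma 3.58.1, R 4.3.3), with Benjamini-Hochberg adjustment over the 22991 probes. A correlation was tested by permutation. The median signal over background was 2.2 to 2.54 per array, and the number of arrays limits precision. The procedure was tested on simulated data.

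Genes named in the text are the 9 transporters (each by its probe of highest mean signal, with other probes also given), genes of the other lists called in any comparison, a fixed set of main transporters, regulators, enzymes and control genes, and the 5 most like genes. A few others are each said to be named after their values were seen. The members and lists were chosen with earlier results of these data known. Of 229 listed genes, 208 had a probe. Alternatives covered scaling, background correction, the filter, the fold minimum, the test, slide and replicate blocks, probes per gene and each array left out. The files hold no mean signal, so normexp (offset 50) used median signals. Figures were drawn with matplotlib 3.10.9.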

Additional observations from a re-analysis of the deposited data

Results flagged for a closer look

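Among the 4 SM arrays, 47 probes of the genes named here were examined for an array far from the others, and 2 stood out, neither of them a transporter probe. Gapdh was at 15.95 in SM replicate 4 and between 15.60 and 15.62 on the other SM arrays, a gap of 0.962 of the whole range. Hnf4a was at 9.46 in SM replicate 1 and between 8.79 and 8.89 on the others, a gap of 0.845 of the range. At a threshold of 0.05 chance alone brings some groups past it in a set of this size, and groups of 3 arrays were not examined.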

How the results depend on the processing

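The counts of called transporter probes were 0 in each comparison an alternative was run for (slide as a fixed block for SM + MSTF versus control alone), by limma and by the methods' t-test. With the replicate number as a block the counts were 0, 0 and 0, while limma's calls over all probes became 53, 0 and 64 in place of 553, 0 and 290 (SM versus control, SM + MSTF versus control, SM + MSTF versus SM). SM replicate 4 is alone in its block, so that fit also sets it aside, and leaving it out by itself gave 244, 0 and 239. Deviations of arrays that share a replicate number correlated between -0.0991 and 0.169. Arrays with different numbers were not compared in this way, so the range cannot show whether the numbers pair the rats. Of 597 transporter fold changes under alternatives, 0 were called and 37 had another sign than the main value, and 11 of the 27 main values never changed sign. Many of the 597 could not change sign. The filters, the fold minimum, the groups compared alone, the t-tests and 1 probe per gene leave a fold change as it is. Leaving out an array does the same for the comparison without its group. The 37 of 597 is therefore no measure of how stable the signs are. The largest main value to change sign was 0.48, for Slco1a4 in SM + MSTF versus control, at -0.05 with slide as a fixed block. With slide as a random block (within-slide correlation 0.109) all calls were 85, 0 and 102, and as a fixed block 291 in SM + MSTF versus control, which then sets the 1 SM + MSTF array of slide 1 against the controls with a spread taken from the other slides too. Normexp gave 217, 0 and 57, no filter 342, 0 and 269, probes above background on all arrays 336, 0 and 140, the groups compared alone 714, 0 and 147, the methods' t-test after adjustment 320, 0 and 13, and at their threshold 1131, 285 and 863. Leaving out 1 array gave 61 to 715, 0 to 248 (without SM + MSTF replicate 3) and 96 to 291. The cause of these shifts was not tested. The share of higher calls in SM + MSTF versus SM was 25.5%, and 15.3% with 75th percentile scaling, 51.6% with the replicate block and 38.1% without SM replicate 4. In SM versus control it was 40.5%, and from 17.5% with normexp to 58.3% without SM replicate 2. The correlation of Slco1a4 and Slco1a6 under other processing and with each array left out, alternatives chosen after seeing the data, ran from 0.915 to 0.963. Abcb1a and Abcb1b were too dim for any fold change in the tested set.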

Other observations

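Lcn2, an acute phase gene named after its values were seen, gave 12.42 in SM replicate 4 and 14.47 in SM + MSTF replicate 1, beside 7.48 to 9.51 on the remaining arrays. In SM + MSTF replicate 1 both Slco1a4 probes were at their highest. In SM replicate 4 the second Slco1a4 probe lay below all controls, and the brighter one lay within their range.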
